A study of Mus musculus with 3 samples.

Results

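Cones are described here as the 115 cells that the authors' annotation named cones among 3298 cells of the postnatal day 14 (P14) mouse retina, which is 3.49% of them (95% exact Clopper-Pearson interval, 2.89 to 4.17). The whole series held 14611 cells. The annotation was the only criterion, and the authors had drawn it from the marker genes of clusters of these same cells, so levels of genes in cones against other types are given as a description and were not tested. The retinas came from littermates of an *Sstr2* allelic series on a C57BL/6 / CD1 background, at P14 and with no treatment: 1 was wild type (Sstr2 +/+), 2 were heterozygous (+/-) and 2 were knockout (-/-). The allele, *Sstr2* em1(IMPC)Mbp, is a germline deletion that every cell of the animal carries, and it was bred from C57BL/6NCrl mice into CD1. Samples were barcoded with lipid-modified oligonucleotides and pooled into a single 10x Chromium 3' library (MULTI-seq), and each barcoded sample is called a retina here, numbered within its genotype by barcode only. The sources used here do not state that a sample held a single retina. Transcripts were counted as unique molecular identifiers (UMIs). Levels are UMIs of a gene counted per 1000000 UMIs (CPM), summed over the cells of a type in a retina, and since the reads come from the 3' end, they are not divided by gene length.

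Cones are the photoreceptors of daylight and colour vision, and rods those of dim light. In both, light changes the shape of an opsin, the opsin activates the G protein transducin, transducin releases a phosphodiesterase from its inhibitory subunit, and the fall of cyclic GMP closes channels in the outer segment. Cones and rods use different genes for most of these steps and the same genes for others. The factors NRL and NR2E3 drive the rod programme and repress cone genes, while the thyroid hormone receptor TRβ2, from *Thrb*, and RXRγ, from *Rxrg*, set the balance of the S and M opsins of mouse cones, many of which hold both opsins.

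The wild-type retina gave 34 cones with 402259 UMIs. Heterozygous retinas 1 and 2 gave 20 cones with 223707 UMIs and 11 cones with 88933 UMIs, and knockout retinas 1 and 2 gave 34 cones with 313190 UMIs and 16 cones with 176862 UMIs. Where 5 values follow each other below, they are in this order: wild type, heterozygous 1, heterozygous 2, knockout 1, knockout 2. Heterozygous retina 2 stood apart from the others. It had the fewest cells of all types, 304, and in its cones *Xist*, the transcript of the inactive X chromosome, stood at 2541 CPM against 0 to 13.4 CPM in the other 4 retinas, whose cones held *Uty* and *Ddx3y* of the Y chromosome. P14 cells shared 7 cell barcodes with the P0 library, none of them of a cone, and 4 with the explant library, 1 of them of a cone. Scrublet, which scores cells by likeness to simulated doublets, marked 2 P14 cells, both bipolar cells and both outside the cones. How well this call worked was not tested, and no cell was removed as a doublet here.

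Cones made up 3.40%, 2.70%, 3.62%, 5.41% and 2.56% of the cells of the 5 retinas. Knockout retina 1 lay above all others and knockout retina 2 below all others. The mean was 3.98% ± 2.01 (SD, n = 2 retinas) in knockout retinas and 3.24% ± 0.478 (SD, n = 3) in the rest, a difference of 0.742 percentage points that was smaller than the spread between the knockout retinas (two-sided exact permutation p = 0.8, adjusted p = 0.8 over the 3 such tests made here, where 2 retinas against 3 can go no lower than 0.1). As a share of cones plus rods, cones made up 4.84%, 3.38%, 4.28%, 9.12% and 3.46%, with a difference of 2.12 points (two-sided exact permutation p = 0.4, adjusted p = 0.8). Without knockout retina 1 the differences turned to -0.680 and -0.704 points, and without knockout retina 2 they were 2.17 and 4.95 points. For these shares, fewer cones in a retina and fewer cones kept through dissociation cannot be told apart.

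Cones gave more transcripts than rods. The median cone held 10245 UMIs, from 2266 to 25133, and 3373 genes, against 3374 UMIs in rods, 3939.5 in bipolar cells, 4512.5 in amacrine cells and 15108 in Müller glia. The cones were not uniform. With *Nrl*, *Nr2e3*, *Gnat1*, *Pde6b*, *Cnga1* and *Cngb1* summed in each cell, every rod held at least 2670 CPM of these 6 rod genes. That lowest rod came from heterozygous retina 2 and set a common limit for all retinas. The lowest rods of the wild type, heterozygous retina 1, knockout retina 1 and knockout retina 2 held 4061, 3523, 4403 and 4268 CPM. The 5th percentile of all rods was 7839 CPM. Of the cones, 61 lay below every rod, with a median of 1068 CPM, and 54 lay within the range of rods, with a median of 5171 CPM. The cones nearest to the limit were at 2627 CPM and 2852 CPM, and 6 cones lay within 20% of it. The classes are ranges of this sum and are not named as types of cell, and whether they form separate groups was not tested. This limit was chosen after the data were seen.

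**Figure D1:**
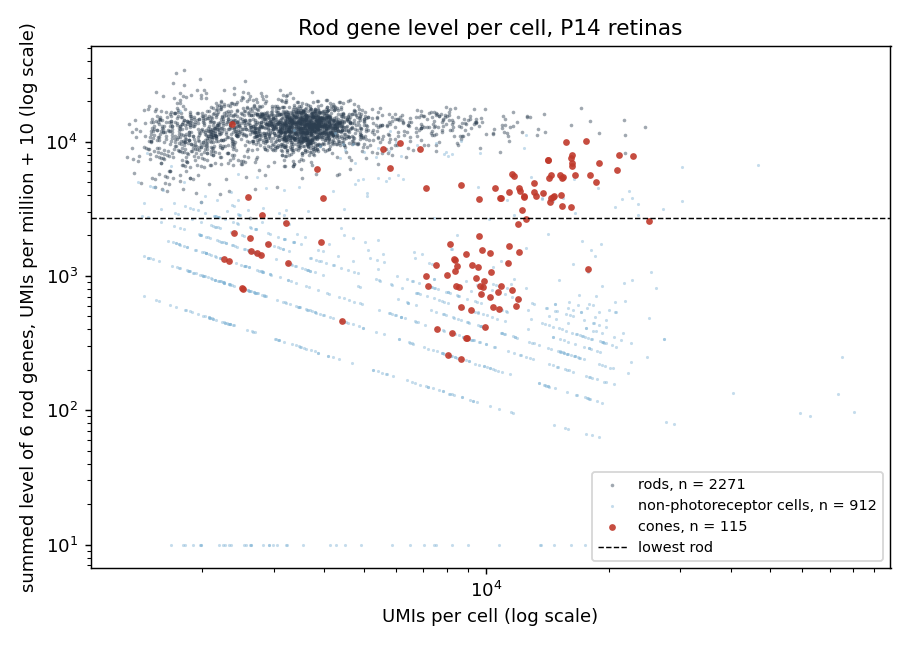
Summed level of 6 rod genes in each P14 cell (vertical axis, CPM + 10, log scale) against its UMIs (horizontal axis, log scale), for 2271 rods, 912 non-photoreceptor cells and 115 cones. The dashed line marks the lowest rod, from heterozygous retina 2: 61 cones lie under it, among the non-photoreceptor cells, and 54 above it, most of them with more UMIs than the rods.

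The cones within the rods' range held more UMIs, and 5 cone markers took a smaller share of them. Their median was 13997.5 UMIs against 8934 in the cones below every rod, a gap of 5063.5 UMIs beside a median of 3374 UMIs for a rod. Their median level of the 5 cone markers *Arr3*, *Opn1sw*, *Opn1mw*, *Gnat2* and *Pde6h* was 11155 CPM against 18005 CPM, and their median Scrublet score was 0.107 against 0.0274. By the common limit, the share of cones below every rod differed between retinas: it was 9 of 34, 10 of 20, 10 of 11, 21 of 34 and 11 of 16. A limit of each retina's own would move these shares: the median wild-type cone, at 4054 CPM, lay under the lowest wild-type rod, at 4061 CPM. The part of doublets, free RNA and depth in this split was not tested. The main results below that rest on rod genes are therefore given for all cones and for the 61 cones below every rod.

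Across both classes 19 cones held under 5000 UMIs, 14 of them among the cones below every rod. In these 19 the mitochondrial genes took 24.3% of UMIs, against 8.38% in the 47 deeper cones below every rod and 7.92% in the 49 deeper cones within the rods' range. Their *Gngt2* stood at 1407 CPM against 5884 CPM in the 47 deeper cones below every rod, *Pde6h* at 1443 against 6347 CPM and *Opn1mw* at 1158 against 4362 CPM, while *Arr3*, the cone arrestin, stood at 3064 against 1888 CPM. Such cones came from every retina, with 5, 1, 3, 8 and 2 of them. Over all cones of a retina, mitochondrial genes took 8.16% to 9.58% of UMIs, against 4.42% to 6.20% in rods.

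The annotation was drawn from marker genes, so the markers describe the cells named cones and do not test the name. *Arr3*, which quenches the activated opsin, stood at 1489, 1676, 2350, 1711 and 1436 CPM in cones, and no retina's rods exceeded 22.1 CPM. *Gnat2*, the α subunit of cone transducin, stood at 1487, 1506, 1540, 1612 and 1781 CPM, against at most 15.2 CPM in rods. *Pde6h*, the inhibitory subunit of cone phosphodiesterase, stood at 1864, 6012, 3744, 5182 and 6005 CPM, against at most 18.5 CPM in rods. The wild-type retina, which had the largest share of cones within the rods' range by the common limit, was lowest for *Pde6h* and *Gngt2*. All of these levels lay clear of rods and of non-photoreceptor cells in 5 of 5 retinas. A UMI of *Arr3* was present in 99.1% of cones and 5.59% of rods, a share in rods that can come from free RNA.

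The stretch before the start of the gene is shown for *Gnat2* and for *Opn1sw*, which had cone levels over 100 times those of rods, with the letters TAATCC, the core that homeodomain factors such as CRX prefer, and AGGTCA, the half-site of nuclear receptors, in capitals on either strand (as GGATTA and TGACCT on the other). Sequences are from RefSeq for GRCm38.p6 and run to the base before its start, while GENCODE M21 begins both genes upstream of these stretches. They lie at chr3:108092816-108093065 on the plus strand for *Gnat2* and chr6:29380514-29380763 on the minus strand for *Opn1sw*, and are shown 5′ to 3′ on the gene's strand.
Gnat2: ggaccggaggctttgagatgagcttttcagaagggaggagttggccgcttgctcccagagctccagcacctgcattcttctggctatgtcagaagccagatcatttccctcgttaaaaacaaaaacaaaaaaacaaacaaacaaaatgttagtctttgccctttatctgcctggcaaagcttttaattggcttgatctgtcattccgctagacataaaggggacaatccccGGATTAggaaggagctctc
Opn1sw: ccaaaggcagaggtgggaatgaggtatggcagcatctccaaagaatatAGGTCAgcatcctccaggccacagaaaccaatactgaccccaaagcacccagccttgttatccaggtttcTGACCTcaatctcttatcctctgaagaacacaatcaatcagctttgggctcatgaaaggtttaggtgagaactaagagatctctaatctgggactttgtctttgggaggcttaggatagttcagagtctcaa

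*Gnat2* held GGATTA 19 bases before the start, and *Opn1sw* held AGGTCA and TGACCT, the first 202 bases before it. *Pde6h*, *Opn1mw*, *Cnga3* and *Arr3*, not shown, stood at 379, 283, 143 and 105 times the level of rods, and their promoters held neither motif. Of the 14 cone genes, 9 had an entry, with 13 promoters. TAATCC in either direction was in 2 of these 13 (15.4%) and in 6.25% of 32851 promoters of this length, and AGGTCA was in 3 of 13 (23.1%) and in 14.0% of all. Of 11 promoters of 10 rod genes, 4 held TAATCC (36.4%) and 3 held AGGTCA (27.3%), so neither motif was more frequent in the cone set than in the rod set. *Cngb3*, *Gnb3*, *Gngt2*, *Pde6c* and *Sall3* had no entry in the set of promoter sequences used here. A match is a description of these 250 bases and not evidence that a factor binds.

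All 14 genes of the cone lists lay above rods in 5 of 5 retinas, as did 21.9% of the 4174 genes considered (916 genes, with at least 50 UMIs in cones or expected there at the level of rods). In the outer segment pathway, *Gngt2*, the γ subunit of cone transducin, averaged 4567 CPM ± 879 (SD, n = 5 retinas) in cones and 19.2 ± 4.72 in rods. *Gnb3*, its β subunit, averaged 2316 ± 280 CPM in cones, 123 CPM in rods and 492 CPM in non-photoreceptor cells. *Gnb3*, which bipolar cells use too, had the smallest ratio of cones to non-photoreceptor cells among the 14 genes. *Pde6c*, the catalytic subunit of cone phosphodiesterase, averaged 623 ± 298 CPM against 3.50 CPM in rods, and ranged over the retinas from 304 to 955 CPM. The channel subunits *Cnga3* and *Cngb3* averaged 78.9 and 263 CPM against 0.552 and 5.11 CPM, and the exchanger *Slc24a2* 195 against 2.93 CPM.

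Among the factors that set cone identity, *Thrb* averaged 492 ± 56.0 CPM in cones and 91.5 ± 7.35 CPM in rods, and rods were above the 34.9 CPM of non-photoreceptor cells. *Rxrg* averaged 35.0 ± 15.9 CPM against 0.662 CPM in rods, and *Sall3*, a zinc finger factor of S cones, 67.2 ± 11.8 against 0.248 CPM. The 3' counts do not separate the TRβ2 form from other forms of *Thrb*. On the authors' depth-corrected SCT counts 13 of the 14 genes lay above rods in all retinas, and in the 61 cones below every rod all 14 did, beside 17.8% of all genes considered.

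**Figure D2:**
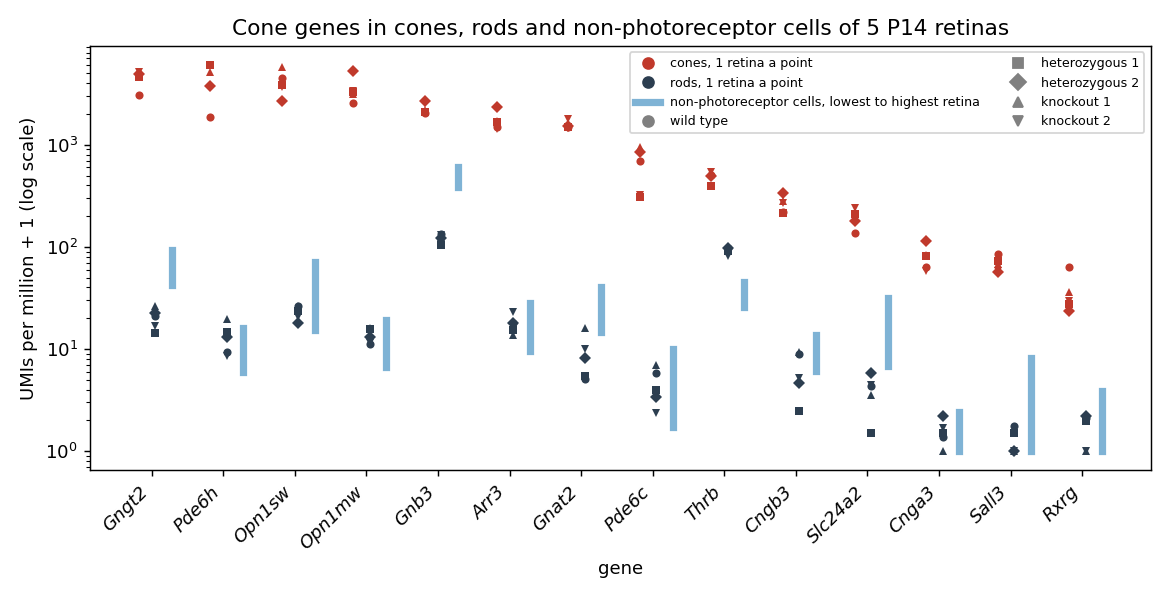
Levels of the 14 cone genes (CPM + 1, log scale) in cones and rods of each P14 retina, with the range of non-photoreceptor cells over the 5 retinas as a bar. For each gene the cones of every retina lie above the rods of every retina, with *Pde6h* lowest in the wild type at 1864 CPM.

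Over all genes considered, those of the lists included, cones lay above every other P14 type in all 5 retinas for 216 genes (5.17%), and 72 of them were at least 4-fold above rods. The 15 with the largest ratio to rods were led by *Pde6h*, *Gngt2*, *Opn1mw*, *Opn1sw*, *Gnat2* and *Arr3*. Next came, from outside the lists, *Kcne2*, an accessory subunit of potassium channels, with 858 CPM ± 189 in cones and 4.71 ± 1.18 in rods. The others included *Pgc*, the precursor of the stomach protease gastricsin, with 615 against 3.72 CPM, and *Cd59a*, an inhibitor of the complement attack complex, with 471 against 2.82 CPM. *Acbd6*, an acyl-CoA binding protein, had 495 against 5.17 CPM, and *Adrb1*, the β1 adrenergic receptor, 282 ± 39.6 against 1.97 ± 1.72 CPM. *Sphkap*, an anchor protein of protein kinase A, had 649 against 15.2 CPM, *Ccdc136* 729 against 16.6 CPM and *Olfm1*, a secreted glycoprotein of neurons, 602 against 17.8 CPM. *Pde6c* completed the list. In the cones below every rod 206 genes lay above every other type in all retinas, 175 of them shared with the 216.

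Both cone opsins were found in most cones. *Opn1sw*, the S opsin of short wavelengths, stood at 4457, 3858, 2699, 5738 and 3641 CPM. *Opn1mw*, the M opsin of middle wavelengths, stood at 2563, 3268, 5262, 3177 and 3387 CPM. Heterozygous retina 2 was the lowest for *Opn1sw* and the highest for *Opn1mw*. Of the 115 cones, 91 held UMIs of both (79.1%, 95% exact Clopper-Pearson interval 70.6 to 86.1, counting error only), 12 held *Opn1sw* alone, 12 *Opn1mw* alone and 0 neither. By retina the share with both was 88.2%, 75.0%, 54.5%, 79.4% and 81.25%. With at least 2 UMIs of each, 72.2% held both, and after thinning every cone to 2000 UMIs 67.0% did. Other types, where free RNA can give such UMIs, showed a low share: 0.396% of rods held both, with 7.27% holding *Opn1sw* and 4.05% *Opn1mw* at a median of 3374 UMIs, and 1.13% of Müller glia held both at a median of 15108 UMIs. Bipolar cells had the highest share outside cones, with both in 1.38% at a median of 3939.5 UMIs, and amacrine cells had 0 of 68. After thinning, both were found in 0.960% of bipolar cells, 0.403% of Müller glia and 0.0506% of rods, with 57, 18 and 296 of these cells too shallow to enter.

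The balance of the opsins varied over the whole range from cone to cone. Of the 94 cones with at least 20 opsin UMIs, 21 had at most 10% of them from *Opn1sw*, 61 lay between and 12 had at least 90%. The M-rich, mixed and S-rich cones had similar median depths, at 10863, 11593 and 10481 UMIs. Heterozygous retina 1 had 7 of the M-rich cones, and knockout retina 1 had 5 of the S-rich cones while knockout retina 2 had 0. Cones of different parts of the retina differ in opsin, and where in the retina a cell had been was not recorded.

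**Figure D3:**
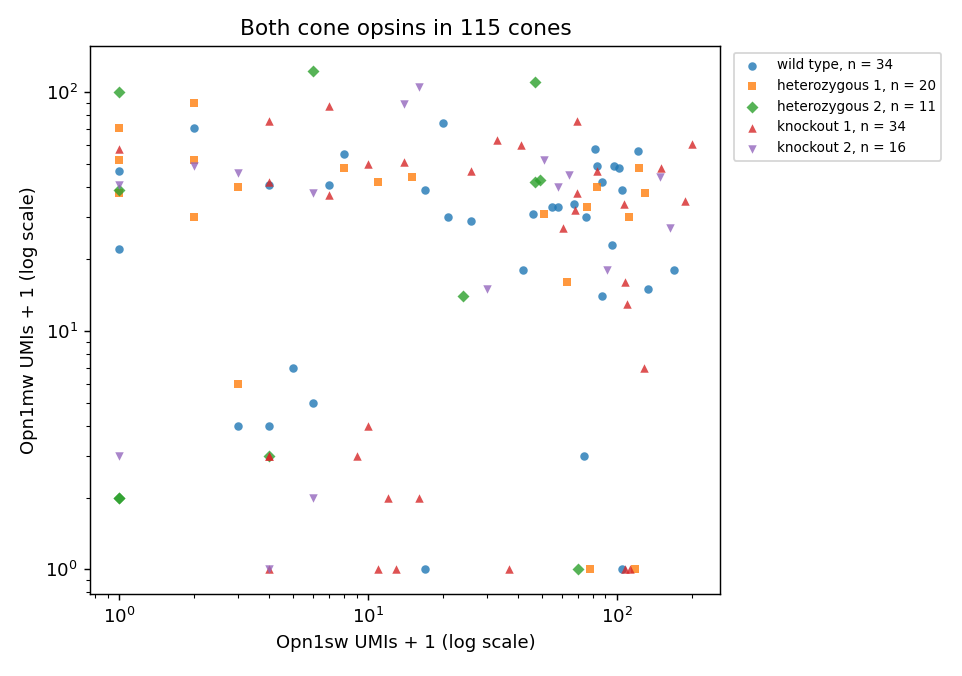
UMIs of *Opn1sw* (horizontal axis, UMIs + 1, log scale) and *Opn1mw* (vertical axis, UMIs + 1, log scale) in each of 115 cones, marked by retina. Most cones hold UMIs of both, 12 lie along each edge with none of the other opsin, and a small group has few UMIs of either.

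Summed over the cones of a retina, *Opn1sw* made up 63.5%, 54.1%, 33.9%, 64.4% and 51.8% of opsin UMIs. The knockout retinas lay within the range of the others but for knockout retina 1, which exceeded the wild type by less than the replicate spread. The means were 58.1% ± 8.88 (SD, n = 2) and 50.5% ± 15.1 (SD, n = 3), a difference of 7.58 points (two-sided exact permutation p = 0.7, adjusted p = 0.8, smallest possible 0.1). It turned to -0.730 points without heterozygous retina 2 and was -5.41 points against the wild type alone, so no direction held.

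Rod transcripts in cones were above the level in non-photoreceptor cells, which is called the background here. Summed over 13 rod genes, cones held 29121, 23701, 17834, 23842 and 19733 CPM. The mean of 22846 CPM ± 4356 was 40.7% of the rods' 56085 CPM ± 2638, while bipolar, Müller and amacrine cells together held 4058 CPM ± 1402, or 7.24%. The cones of a retina thus held 6.21 ± 2.32 times its background, and in the highest retina 9.54 times. In the 61 cones below every rod the sum was 16514 CPM ± 1442, still 4.43 ± 1.33 times the background.

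The rod genes split when each was set against its own level in rods. In the cones below every rod, *Gnat1*, the α subunit of rod transducin, *Pde6b*, *Cnga1*, *Cngb1*, *Nrl* and *Nr2e3* stood at 5.94% to 9.91% of rods, but these genes chose the cones and their low level is no finding. Some rod genes not used in the choice were also near the background, which choosing cones low in rod genes can itself bring about. *Pde6a*, a catalytic subunit of rod phosphodiesterase, stood at 110 CPM beside a background of 96.1 CPM. *Gnb1*, the β subunit of rod transducin, stood at 516 beside 495 CPM, and *Slc24a1*, the rod exchanger, at 112 beside 123 CPM. Pooled over retinas, *Gnb1* was at 519 CPM in bipolar and 486 CPM in amacrine cells, where *Gnat1* was at 470 and 206 CPM. Whether non-photoreceptor cells express *Gnb1* themselves was not tested. In all cones these genes stood higher, at 259, 1280 and 341 CPM, or 29.2%, 23.7% and 22.5% of rods.

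*Sag*, *Gngt1* and *Pde6g* did otherwise. *Sag*, the arrestin of rods, stood at 4941 CPM in the cones below every rod, 42.6% of rods, against a background of 858 CPM. *Gngt1*, the γ subunit of rod transducin, stood at 6409 CPM, 40.2% of rods, and *Pde6g*, the inhibitory subunit of rod phosphodiesterase, at 3274 CPM, 42.7% of rods. Each lay above non-photoreceptor cells in 5 of 5 retinas and below rods in 5 of 5. None of the 3 had been used to choose the cells.

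The ratio of a gene to *Gnat1*, a reference chosen after the data were seen, was taken over all cones, with no choice among them. In rods *Sag* was 2.75 ± 0.192 times *Gnat1* (SD, n = 5 retinas) and in non-photoreceptor cells 2.27 ± 0.284 times. In all 115 cones it was 6.16 ± 2.79 times, from 3.63 to 10.8, above rods and above non-photoreceptor cells in 5 of 5 retinas. *Gngt1* was 7.93 times *Gnat1* in cones against 3.78 in rods and 2.75 in non-photoreceptor cells, and *Pde6g* 3.93 times against 1.82 and 1.04, both above in 5 of 5 retinas. *Gnb1* was 1.14 times *Gnat1* in cones, 1.29 in rods and 1.33 in non-photoreceptor cells, above rods in 0 of 5 retinas. *Pde6b* was 0.372 times *Gnat1* in cones, 0.352 in rods and 0.316 in non-photoreceptor cells, above rods in 4 of 5 retinas and above non-photoreceptor cells in 5 of 5. *Pde6a* was 0.230 times in cones and 0.210 in rods, above rods in 5 of 5 retinas, but 0.257 in non-photoreceptor cells and above those in 1 of 5. In the 61 cones below every rod *Sag* was 10.3 to 15.2 times *Gnat1* over the retinas, and *Gngt1* and *Pde6g* averaged 15.8 and 8.02 times, values that the choice of these cones by *Gnat1* itself can raise.

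**Figure D4:**
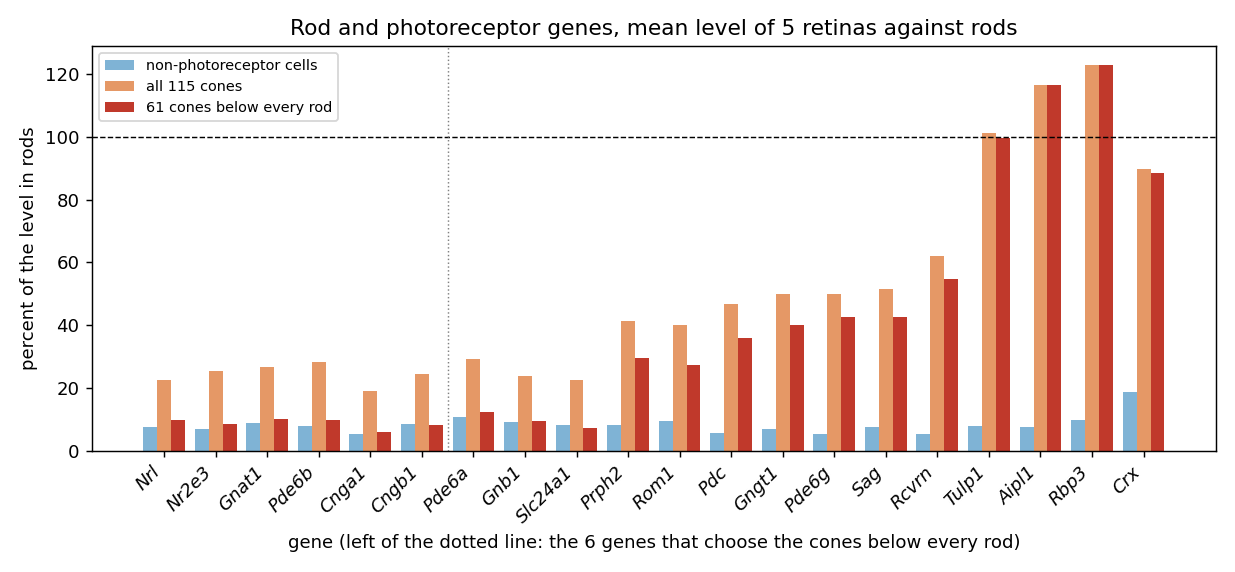
Mean level of rod and photoreceptor genes over 5 P14 retinas as a percent of that in rods (dashed line at 100), for non-photoreceptor cells, all cones and the cones below every rod. *Pde6a*, *Gnb1* and *Slc24a1* lie near the background in the cones below every rod, while *Sag*, *Gngt1* and *Pde6g* stay at 42.6%, 40.2% and 42.7% of rods.

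Genes that end the light response were present in both cones and rods. *Guca1a*, the guanylate cyclase activator GCAP1, was the 1 of 10 recovery genes above rods in all retinas, beside 21.9% of all genes considered. It stood at 2886, 2821, 3351, 3372 and 3172 CPM in cones and at 391 to 931 CPM in rods, a 5.26-fold ratio of means. The related *Guca1b* stood at 441 ± 82.5 CPM against 1341 CPM in rods, and at 266 CPM in the cones below every rod. *Rcvrn*, recoverin, stood at 4025 ± 612 CPM or 62.2% of rods, and *Pdc*, phosducin, at 3585 ± 431 CPM or 46.7%, and 35.8% in the cones below every rod. *Rgs9*, which speeds the hydrolysis of GTP by transducin, stood at 614 ± 101 CPM against 560 CPM in rods, above them in 4 of 5 retinas, and *Grk1*, the opsin kinase, at 269 ± 22.4 against 360 CPM. *Gucy2f*, a guanylate cyclase, stood at 23.2 CPM against 116 CPM in rods and was at 5.79 CPM in the cones below every rod, beside a background of 8.73 CPM, whereas the cyclase *Gucy2e* was at 59.3% of rods in all cones and 59.1% in the cones below every rod. Of the 10 genes, 8 lay below rods in 5 of 5 retinas (20.9% of all genes considered did), and 7 did in the cones below every rod (19.5%).

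Outer segment and cilium genes were mostly below rods. Of 13 genes, 8 lay below rods in all retinas, beside 20.9% of all genes considered, and 1 lay above, beside 21.9%. The counts in the cones below every rod were 7 below and 1 above, beside 19.5% and 17.8% of all genes. *Aipl1*, a chaperone of phosphodiesterase, stood at 1301 CPM ± 44.6 in cones and 1115 CPM in rods and was the gene above rods in all retinas. *Tulp1*, a carrier of outer segment proteins, stood at 2403 ± 160 against 2368 CPM, and *Cdhr1*, a cadherin of the disc base, at 498 ± 83.6 against 454 CPM. *Prph2* and *Rom1*, the proteins of the disc rim, stood at 41.3% and 40.1% of rods, and at 29.4% and 27.4% in the cones below every rod. *Rp1*, a microtubule protein of the outer segment, stood at 34.9% and then 18.3%. Of the 4 retinoid genes, *Rbp3*, the retinoid carrier of the space around outer segments, was the 1 above rods in all retinas, with 1344 ± 185 against 1094 CPM, and the other 3 lay below rods in all retinas, of which *Rdh8* had 4 UMIs in cones. *Rbp3* of the cones below every rod was above rods in 4 of 5 retinas, and 0 of the 4 genes were above in all.

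The photoreceptor transcription factors lay below rods in all retinas for 4 of 6 genes and above them in all retinas for 0, beside 20.9% below and 21.9% above over all genes considered. In the cones below every rod, 3 of the 6 lay below rods in all retinas, beside 19.5% of all genes. *Crx* stood at 562 ± 44.8 CPM against 625 CPM in rods, and *Neurod1* at 1514 ± 298 against 1904 CPM, both below rods and above non-photoreceptor cells in 5 of 5 retinas. *Otx2* and *Rorb* stood at 63.6% and 66.6% of rods, below the non-photoreceptor cells in every retina. Among those, *Otx2* was highest in bipolar cells, at 446 CPM over all retinas, and *Rorb* in amacrine cells and Müller glia, at 1001 and 979 CPM against 557 CPM in bipolar cells. *Prdm1* stood at 37.9 CPM against 30.8 CPM in rods and *Mef2d* at 248 against 217 CPM, each above rods in 4 of 5 retinas.

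Genes of the synapse differed by member. Of 20 genes, 7 lay above rods in all retinas, as did 21.9% of all genes considered, and 5 lay below, near the 20.9% of all genes. In the cones below every rod 6 lay above and 2 below, beside 17.8% and 19.5% of all genes. *Cplx3*, a complexin of ribbon synapses, stood at 562, 617, 630, 661 and 752 CPM in cones and at 80.9 to 103 CPM in rods, while its relative *Cplx4* went the other way, at 485 ± 80.2 against 863 CPM, with 372 CPM in the cones below every rod. Non-photoreceptor cells held *Cplx3* at 485 CPM, nearer to cones than rods were. *Elfn2*, an adhesion protein of the synapse, stood at 37.7 against 3.57 CPM in rods and 39.2 CPM in non-photoreceptor cells, and *Elfn1* at 72.5 against 80.1 CPM. *Syp*, *Sv2b*, *Syt1*, *Pclo* and *Bsn* were the others above rods, at 1.38 to 1.53 times the rods' level, with 27 UMIs in all for *Bsn*. Of these, *Pclo* and *Bsn* were above rods in 3 and 2 of 5 retinas in the cones below every rod, where *Vamp2*, above rods in 4 of 5 retinas over all cones, was above in 5 of 5. *Slc17a7*, the vesicular glutamate transporter, stood at 1003 ± 99.8 against 938 CPM.

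Energy metabolism also differed by member. *Hk2*, the hexokinase that starts glycolysis, stood at 594, 657, 495, 671 and 560 CPM in cones and at 103 to 214 CPM in rods, a 4.20-fold ratio of means. *Ldhb*, which favours the use of lactate, stood at 74.6 ± 20.8 against 20.7 CPM, but at 146 CPM in non-photoreceptor cells, below which cones lay in 5 of 5 retinas. *Eno2*, the neuronal enolase, stood at 183 ± 20.7 against 94.0 CPM. *Hk2*, *Ldhb* and *Eno2* were the 3 of 17 glycolysis genes above rods in all retinas, not more than the 21.9% of all genes considered, and 10 lay below, beside 20.9% of all genes, among them *Gapdh* at 1779 ± 116 against 2775 CPM, *Ldha* at 1214 ± 100 against 1726 CPM and *Pkm* at 936 ± 120 against 1350 CPM. In the cones below every rod the counts were again 3 above and 10 below, beside 17.8% and 19.5% of all genes. *Ckmt1*, the creatine kinase of mitochondria, stood at 283 ± 47.3 against 189 CPM, and *Ckb* at 1885 ± 175 against 1002 CPM, with 2047 CPM in non-photoreceptor cells. The share of mitochondrial UMIs was higher in cones, as given above, and its part in these differences was not tested.

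Among the genes lowest in cones against rods were *Cnga1*, *Mlf1*, *Nt5e*, *Nrl*, *Slc24a1*, *Gnb1*, *Prkca*, *Cngb1* and *Samd11*. *Nt5e*, the surface enzyme CD73 that makes adenosine, stood at 48.4 CPM in cones and 257 CPM in rods, and at 15.2 CPM in the cones below every rod beside a background of 25.2 CPM. *Samd11*, a rod-enriched nuclear protein, stood at 221 against 943 CPM, with 95.3 CPM in the cones below every rod and a background of 102 CPM. *Mlf1* stood at 6.82 against 63.4 CPM, on 10 UMIs.

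Markers of other cells were at or near 0 in cones, with exceptions. The 7 microglial genes summed to 1 UMI, from *Csf1r*, and *C1qa*, *Cx3cr1* and *P2ry12* were at 0. The 2 astrocyte genes were at 0, the 6 amacrine genes summed to 31.0 CPM against 56.1 CPM in rods, with *Gad2* at 0, and the 8 ganglion cell genes to 18.8 CPM, with *Pou4f2* at 0. The 4 horizontal cell genes summed to 9.20 CPM, led by *Onecut1* with 6 UMIs. The vessel and pigment epithelium genes summed to 4.79 and 5.56 CPM, with *Cldn5* and *Rpe65* at 0. The 8 bipolar genes summed to 184 CPM in cones and 311 CPM in rods. *Cabp5*, a calcium-binding protein of cone bipolar cells, made up 79.5 CPM of it against 12.1 CPM in rods, above rods in 5 of 5 retinas. Bipolar cells pooled over retinas held *Cabp5* at 418 CPM. *Grm6* and *Trpm1* were below rods in 5 of 5. The 7 Müller genes summed to 456 CPM against 334 CPM, and *Clu*, clusterin, made up 254 ± 79.0 CPM of it against 64.0 CPM in rods. Müller glia pooled over retinas held *Clu* at 2470 CPM, and cones were above non-photoreceptor cells in 0 of 5 retinas. *Apoe* stood at 103 CPM against 84.3 CPM in rods, above them in 2 of 5 retinas, with 9180 CPM in Müller glia. *Glul* and *Rlbp1* were below rods in 5 of 5.

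Early response and heat shock genes, which dissociation can raise, summed to 4416 CPM in cones and 3950 CPM in rods. *Fos* stood at 2015 ± 887 CPM against 1668 CPM, above rods in 2 of 5 retinas, and *Jun* and *Btg2* were above rods in 5 of 5, at 425 against 236 CPM and 405 against 217 CPM. The heat shock genes *Hspa1a* and *Hspa1b* were below rods in 5 of 5, at 24.4 against 38.0 CPM and 13.8 against 30.6 CPM. That is 2 of 9 genes above and 2 below, near the 21.9% and 20.9% of all genes considered. Non-photoreceptor cells held *Jun* at 2052 CPM and *Btg2* at 948 CPM, and in the cones below every rod *Jun* was above rods in 4 of 5 retinas.

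The targeted receptor could not be followed in cones. *Sstr2* had 0 UMIs in the cones of every retina, as did the peptide *Sst* and the receptor *Sstr1*, where a count of 0 among 1204951 cone UMIs allows up to 3 (counting error only). *Sstr2* was also at 0 in rods. Over all P14 cells it had 2, 2, 0, 1 and 13 UMIs, so at P14 it does not check the genotype labels, and a 3' tag can lie outside the deleted part. Of the G proteins that somatostatin receptors use, *Gnao1* stood at 53.3 ± 19.5 CPM in cones and 38.9 CPM in rods, and *Gnai1*, *Gnai2* and *Gnai3* had 5, 20 and 22 UMIs.

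Of 4148 genes tested in cones, 1 differed between knockout and other retinas at an adjusted p under 0.05 (edgeR's quasi-likelihood test on UMIs summed per retina, Benjamini-Hochberg), with 0 higher (0%) and 1 lower (0.0241%) in the knockout. That gene was *Gm8797*, a predicted gene at chr3:5750806-5751295 (plus strand, GRCm38), which GENCODE M21 lists as protein-coding and RefSeq as a pseudogene, and reads of similar copies elsewhere could have been split or shared. Its level in cones was 534, 237, 360, 28.7 and 50.9 CPM. Both knockout retinas lay below all 3 others, with a log2 change of -3.40 (SE 0.36, edgeR adjusted p = 2.45e-06). In rods of the same retinas it was 496, 246, 250, 37.9 and 36.0 CPM, with a log2 change of -3.19 (edgeR adjusted p = 6.12e-04). It was the 1 gene called lower among 8979 tested in rods (0.0111%), with 0 called higher (0%). In bipolar cells it was 390, 203, 242, 34.9 and 23.2 CPM and in Müller glia 436, 209, 223, 35.6 and 28.4 CPM, with the knockout retinas below the others in both. In photoreceptors of the separate P0 retinas it was 249, 457, 223, 24.6 and 18.03 CPM. *Sstr2* itself lies on another chromosome, at chr11:113619342-113626028.

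**Figure D5:**
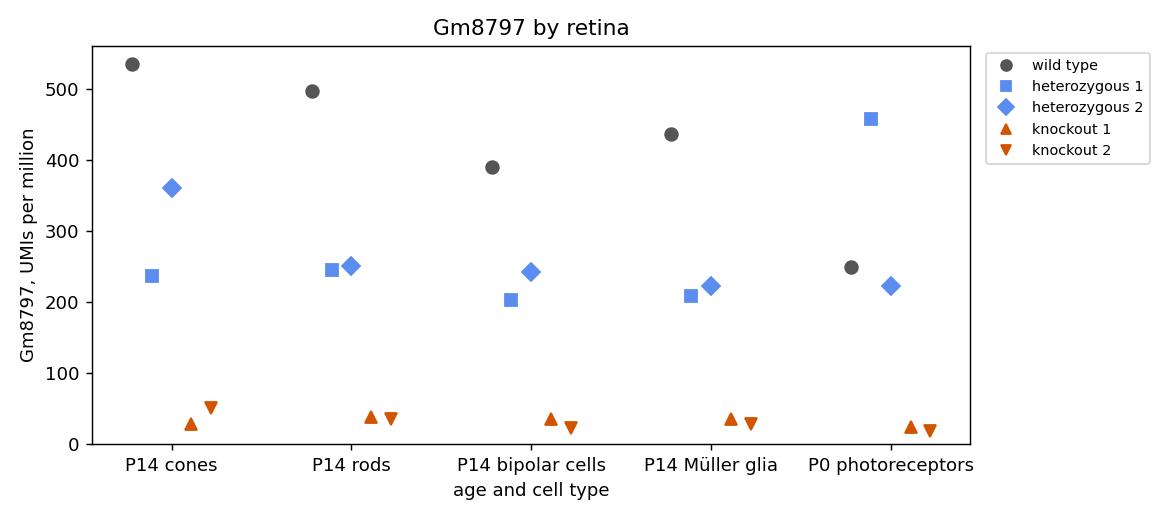
Level of *Gm8797* in CPM (vertical axis, from 0) for each retina, in P14 cones, rods, bipolar cells and Müller glia and in P0 photoreceptors. The knockout retinas lie below the others in each type, at 28.7 and 50.9 CPM in cones.

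By an unadjusted p under 0.05, 169 genes differed in cones by edgeR (4.07%) and 20 by DESeq2, which also called *Gm8797* alone. None of the cone, rod or photoreceptor genes passed. The median log2 change was 0.17 over the 9 cone phototransduction genes and 0.08 over the opsins, beside -0.01 over all genes tested. Over the 10 rod phototransduction genes it was -0.42 in all cones and 0.08 in the cones below every rod. By the common limit, the share of cones within the rods' range was highest in the wild type. The number of calls rose to 21 without heterozygous retina 2 and to 7 without knockout retina 2, and *Gm8797* passed in each of the 5 fits that left out a retina, at edgeR adjusted p = 0.00464 or lower. Where a fit left out a knockout retina, the group held 1 retina and the spread came from the other group alone.

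Of 3789 genes with at least 50 UMIs in cones, both knockout retinas lay above the other 3 for 387 (10.2%) and below for 344 (9.08%). The largest such differences upward were in *Mdm2*, the ubiquitin ligase of p53, *Rab27b*, a small GTPase of vesicle release, and *Map6*, a microtubule stabiliser, and none passed the test. *Mdm2* was at 12.4, 35.8, 22.5, 73.4 and 102 CPM (edgeR adjusted p = 0.293), on 56 UMIs. *Rab27b* averaged 110 CPM in knockout and 44.2 CPM in other retinas, and *Map6* 101 and 41.6 CPM, both with an edgeR adjusted p of 0.999. After *Gm8797* the largest differences downward were in *Rnf121*, a RING finger protein of the secretory pathway, and *Rasa1*, a GTPase activator of Ras. *Rnf121* was at 99.4, 98.3, 56.2, 12.8 and 28.3 CPM (edgeR adjusted p = 0.0871), and its level in rods, 223, 228, 33.7, 37.9 and 32.5 CPM, lay in heterozygous retina 2 near the knockouts. *Rasa1* averaged 30.1 CPM in knockout and 76.7 CPM in other retinas (edgeR adjusted p = 0.999).

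Many cone genes could be seen in photoreceptors at P0, which the annotation did not divide into cones and rods. In 1142 such cells from 5 retinas *Gngt2* averaged 1884 CPM ± 654, *Gnb3* 543 ± 44.7 and *Opn1sw* 226 ± 85.2, against 4567, 2316 and 4079 CPM in P14 cones. *Rxrg* was already at 47.8 ± 16.6 CPM, beside 35.0 CPM in P14 cones, and *Thrb* at 92.5 ± 24.3 CPM. *Arr3*, *Pde6h* and *Pde6c* were low, at 2.22 ± 1.35, 78.4 ± 41.3 and 15.2 ± 5.12 CPM, and *Kcne2* at 3.51 ± 2.20 CPM against 858 CPM. A UMI of *Gngt2* was present in 89.9% of these P0 cells and of *Gnb3* in 84.9%, but of *Opn1sw* in 20.5% and of *Arr3* in 1.40%. Since cones and rods are mixed in this class, the levels are given side by side and were not compared by a test. *Opn1mw* was not analysed at P0.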

How the data were processed

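Per the labels and the methods, the authors prepared 10x Chromium 3' MULTI-seq libraries and processed them with Cell Ranger (3.1.0), the mm10 build and Seurat (3), as listed in the submitters' processing notes. Cells were assigned to samples with deMULTIplex and named by cluster markers. The deposited values are raw UMI counts per gene and cell, and natural log SCT values, which were turned back into corrected counts for an alternative. Filters on cells are not given in the sources used here.

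Counts were summed per retina and type and scaled to CPM. Genes were tested with edgeR (4.0.16, R 4.3.3; TMM, filterByExpr, quasi-likelihood, Benjamini-Hochberg, 0.05), 2 knockout against 3 other retinas. The single wild-type retina was joined with the heterozygous ones. Standard errors were derived from the quasi-likelihood F. On simulated counts for this comparison with 200 of 4148 genes changed 4-fold, the share recovered was 86.5% for edgeR (7 false calls) and 70.5% for DESeq2 (1 false call). These counts were drawn around a common mean per gene with the trended dispersion. Retinas did not differ in sex or in the make-up of their cones there, so recovery in the real data can be lower and was not measured. Shares were tested by exact permutation, two-sided. p-values measure the spread between these samples. Alternatives used DESeq2 (1.42.0), limma (3.58.1) on log2(CPM + 1) and Scrublet in scanpy (1.11.5). The limit that splits cones by rod genes was chosen after the data were seen. Intervals and floors cover counting error only.

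Named genes were those of 24 gene lists, the 15 highest and 10 lowest ratios of cone to rod CPM (+ 10, at least 50 UMIs), genes past the threshold, and the 3 largest rises and falls between groups without overlap. Some genes are not reported here and were left out of the lists and sums. Members and lists were chosen with earlier results of these data known. Positions are from GENCODE M21, promoters from RefSeq.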

Additional observations from a re-analysis of the deposited data

How the results depend on the processing

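Of 55 alternatives to the main results, 44 counted as the same, though the differences in shares changed in size. The rule was the sign for shares and a near count for gene numbers. For cones with both opsins it was the main interval, and for the rod ratio its SD. Some alternatives could not differ. Scrublet marked 0 cones, so leaving out marked cells changed nothing within cones. For shares, leaving out the wild type and setting knockout against heterozygous retinas were the same comparison. Leaving out each retina in turn moved the knockout difference in the cone share of cells from -0.680 to 2.17 percentage points, in the cone share of photoreceptors from -0.704 to 4.95 points and in the S-opsin share from -0.730 to 14.1 points, with the negative values without knockout retina 1 for both cone shares and without heterozygous retina 2 for the opsins. Against the wild type alone the S-opsin difference was -5.41 points. The number of genes called in cones, 1, lay between 1 and 21 with a retina left out, and was 6 with every gene that had a UMI, 21 against the wild type alone and 4 against the heterozygous retinas. The wild type alone is a group of 1, set in a fit of 3 genotypes whose spread comes from the heterozygous and knockout retinas. The cause of these changes was not tested. *Gm8797* kept its direction and its call in all alternatives run, and *Mdm2* and *Rnf121* passed in 3 and 4 of them. The share of cones with both opsins fell to 67.0% with cells thinned to 2000 UMIs, as fewer UMIs were read. The ratio of rod genes in cones to background rose to 14.7 against amacrine cells alone. Knockout and other retinas were compared unpaired, since genotype differs between retinas and the labels pair none of them. Cones and rods were compared within each retina. Depth limits cones of heterozygous retina 2 most, with 88933 UMIs, and 1766 genes could be tested in the cones below every rod.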
